A study of Homo sapiens with 6 samples.

Results

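The G1/S transition and replication licensing genes examined here are 39 genes of 59251 in the table. They were taken by symbol, and each had a row. They are the licensing factor CDT1 and its inhibitor GMNN, origin recognition and loading factors, the MCM helicase and its activators, the sliding clamp and its loader, DNA polymerase subunits, enzymes of deoxynucleotide supply, the cyclin E and E2F genes and UHRF1. Total RNA was sequenced from HCT116 cells, an established human colorectal carcinoma line. The first group (MUT, 3 libraries) carried the eIF6 substitution N106S on both alleles, made by CRISPR/Cas9 editing and grown as clones. The second (WT, 3 libraries) was labelled wild type, and both groups were harvested below confluence. Neither the number of clones nor the origin of replicates from separate cultures is labelled, so a p-value here reflects spread among these libraries alone, possibly technical spread. Ribosome footprints of the same study were not used here. eIF6 binds the large ribosomal subunit and prevents premature joining of the small subunit. The series title concerns ribosome sequestration, mitotic exit and cancer progression. An amino acid substitution is not visible in a table of gene counts, so the genotype was not checked by it.

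In G1, the origin recognition complex and CDC6 recruit CDT1, which brings the hexamer of MCM2 to MCM7 onto DNA and so licenses an origin. Geminin, the product of GMNN, binds CDT1 and blocks a further round of licensing, and CDT1 protein is destroyed once replication begins. Cyclin E with CDK2 drives entry into S phase, CDC45 and the GINS complex turn the loaded MCM ring into an active helicase, and PCNA, its loader and the polymerases copy the DNA. E2F factors switch many of these genes on together in late G1. In tumour lines such as HCT116 they are expressed in proliferating cells.

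Of the 39 members, 34 matched a RefSeq promoter window (GRCh38.p14), which runs from 250 bases before the annotated start to 50 after it. CCNE2, CDK2, MCM4, MCM5 and GINS4 were not matched. E2F-type motifs were searched as TTTGGCGC, TTTCGCGC, TTTCCCGC or TTTGCCGC on both strands. The 160 bases upstream of 5 members that the results below turn on are shown 5′ to 3′ on the gene's strand, with every such match in capitals.
CDT1, chr16:88803629-88803788, plus strand: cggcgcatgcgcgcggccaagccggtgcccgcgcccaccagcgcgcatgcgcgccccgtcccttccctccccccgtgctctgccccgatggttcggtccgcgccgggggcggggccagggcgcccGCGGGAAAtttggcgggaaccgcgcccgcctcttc
GMNN, chr6:24774777-24774936, plus strand: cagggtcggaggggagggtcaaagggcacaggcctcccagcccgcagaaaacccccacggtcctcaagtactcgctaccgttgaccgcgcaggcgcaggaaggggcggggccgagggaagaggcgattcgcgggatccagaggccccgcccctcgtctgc
TK1, chr17:78187205-78187364, minus strand: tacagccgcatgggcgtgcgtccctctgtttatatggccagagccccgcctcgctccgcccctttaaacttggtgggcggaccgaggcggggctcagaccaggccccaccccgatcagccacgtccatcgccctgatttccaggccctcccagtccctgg
MCM6, chr2:135876444-135876603, minus strand: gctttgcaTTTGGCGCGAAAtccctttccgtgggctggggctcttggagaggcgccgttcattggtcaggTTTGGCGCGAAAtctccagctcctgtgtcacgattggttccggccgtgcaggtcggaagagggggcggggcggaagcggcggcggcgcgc
GINS2, chr16:85688955-85689114, minus strand: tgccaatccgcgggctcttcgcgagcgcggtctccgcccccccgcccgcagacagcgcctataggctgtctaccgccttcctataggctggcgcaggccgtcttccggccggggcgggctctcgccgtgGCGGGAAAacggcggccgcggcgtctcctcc

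CDT1 and GINS2 each held a reverse-strand TTTCCCGC, with its first base at -35 and -31 from the start. MCM6 held a repeated pair of overlapping matches, TTTGGCGC at -152 and -90 and reverse-strand TTTCGCGC at -148 and -86. The windows of GMNN and TK1 held no match to these letters. Over all 34 windows 21 held a match (61.8%), against 908 of 27305 windows of all genes (3.33%) and 5.63% of 10030 windows of tested coding genes. CCAAT was found on either strand in 20 of 34 windows (58.8%), against 35.7% of all windows and 36.8% of those of tested coding genes. TTTGAA, the core of a motif of G2 and mitosis genes, was found in 2 of 34 (5.88%), against 15.4% of all windows and 9.20% of those of tested coding genes. The median log2 fold change between MUT and WT was -0.14 for the 21 members with an E2F-type match and -0.26 for the 13 without one.

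Libraries held 53986494 to 80146608 counts in MUT and 63951768 to 87656970 in WT, most of them from small structural RNAs. Without 7SL, 7SK, RPPH1 and RMRP RNA, 11094084 to 21984081 counts remained in MUT and 10252501 to 17798865 in WT. The members together held 21949 to 37942 counts in MUT and 21275 to 35936 in WT, and single members between 24 and 4689 in a library. MUT replicate 2 and WT replicate 1 held the most nuclear ribosomal RNA, at 3.91% and 1.16% of counts, against 0.0891% to 0.234% in the other 4 libraries. Values without this pair are given where they change a call or move a value by over 1.5 times, among the 25 members followed across settings. Keratins of the colorectal line were abundant, with KRT18 at up to 205 CPM (read counts relative to the TMM-scaled library). CDX1, VIL1 and LGALS4 were near 0 in both groups and CDH1 below 1 CPM. Summed epithelial markers ran from 459 to 508 CPM in MUT and from 431 to 467 in WT, a sum carried by 3 keratins. The other epithelial markers above 0.2 CPM were lower in every MUT library than in any WT library. EPCAM was at 7.11 to 8.24 CPM in MUT against 9.12 to 9.83 in WT, and CLDN4 at 5.85 to 7.68 CPM in MUT against 10.7 to 14.8 in WT. ELF3 was at 3.68 to 3.85 CPM in MUT against 6.63 to 7.78 in WT, and CDH1 at 0.235 to 0.413 CPM in MUT against 0.468 to 0.856 in WT. Their part in the members' values was not tested. No single marker of blood, endothelium or hepatocytes exceeded 0.0463 CPM. Fibroblast markers summed to 1.61 to 2.63 CPM in MUT and 0.594 to 3.05 in WT, and neuronal markers to 0.280 to 0.339 CPM in MUT and 0.188 to 0.509 in WT.

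The MUT libraries held less CDT1 mRNA than the WT libraries, and CDT1 was the 1 member that passed the test. That call held in 12 of 22 alternative settings, among them 1 of 6 fits with 1 library left out. Most other members lay slightly lower in MUT, among them GMNN, TK1, MCM5, MCM6 and RRM1, whose MUT libraries all lay below the WT libraries, without passing. CCNE2 and UHRF1 had the highest positive values. All 39 members passed the low-count filter. Genes were tested with edgeR's quasi-likelihood test over 14808 genes and called at a Benjamini-Hochberg adjusted p below 0.05. Called genes made up 1.91% of all tested genes in either direction. Of the members 1 was called lower (2.56%), where 0.925% of all tested genes were called lower. The count of members called higher was 0, against 0.986% of all tested genes. At an unadjusted p below 0.05, 11 members were lower (28.2%) and 2 higher (5.13%), against 9.84% and 9.79% of all tested genes. The groups did not overlap for 11 members lower in MUT (28.2%) and 1 higher (2.56%), against 13.4% and 12.8% of all tested genes.

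**Figure D1:**
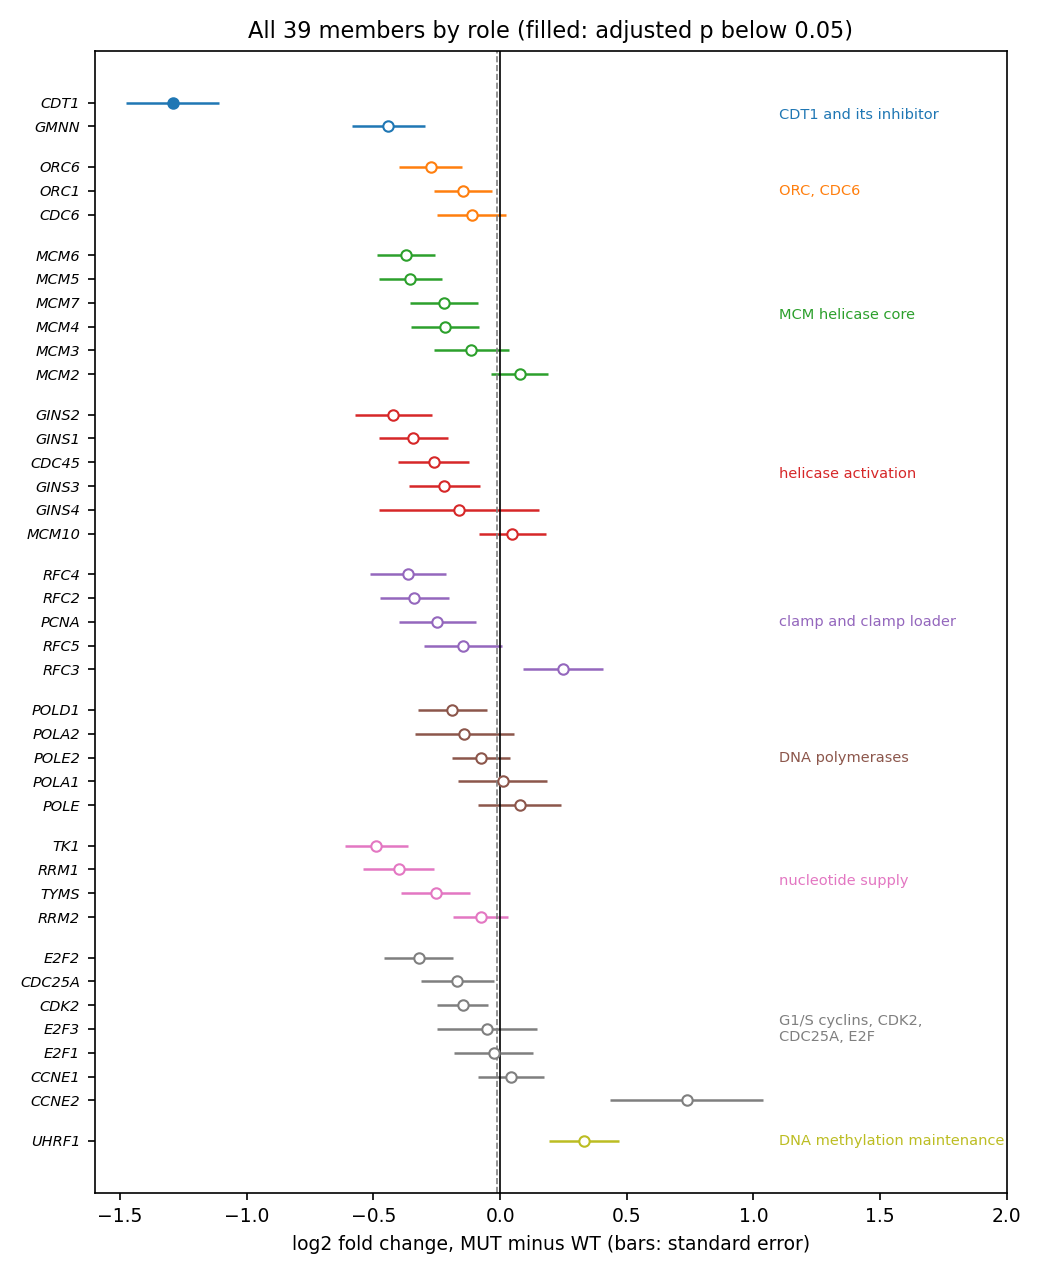
Log2 fold change of each of the 39 members, MUT minus WT, on the horizontal axis with its standard error, in rows grouped by role. The solid line marks 0 and the dashed line the median of all tested genes (-0.01), and the filled point is CDT1, at -1.29.

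The log2 fold change was below 0 for 31 of 39 members (79.5%), against 51.3% of all tested genes. The members' median was -0.17, against -0.01 for all tested genes. Among the 9138 tested genes within the members' range of average level, 49.6% were below 0 and the median was 0.00. Without CDT1, 30 of 38 members were below 0, with a median of -0.17. Scaled by library size without TMM, all genes had a median of 0.54 and the members 0.37. These counts describe the list, and the members share scaling factors and libraries.

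Called members were counted under other settings as well, each beside the share of all genes it called. CDT1 was the 1 called member with DESeq2 size factors (1.92% of genes called), without abundant noncoding RNAs (1.82%), with at least 1 CPM in 3 libraries (4.66%), in limma-voom (1.77%), with a replicate block (2%) and with a term for the 2 libraries richest in ribosomal RNA (2.75%). With no low-count filter CDT1 and CCNE2 were called (4.07%). The count was 0 by library size without TMM (0.729%) and on log2(TPM + 1) (0.736%, or 0.0041% with no filter), log2(TPM + 0.1) (0.351%) and log2(FPKM + 1) (0.209%). The filter of at least 1 TPM in 3 libraries left 14 of 39 members to test, and that of at least 1 FPKM left 32. The count of called members was 0 in some fits with 1 library left out as well. These were the fits without MUT replicate 1 (0.262%), MUT replicate 3 (0.26%), WT replicate 1 (0.196%), WT replicate 2 (0.177%) or WT replicate 3 (0.392%).

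CDT1, which loads the MCM ring (chromosome 16, 88803789 to 88809258, GRCh38), stood at 27.2, 17.5 and 24.4 CPM in the MUT libraries, against 55.9, 49.6 and 63.6 CPM in the WT libraries. Every MUT library was below every WT library, and MUT replicate 2 was the lowest. The mean was 23.03 ± 5.01 CPM in MUT and 56.4 ± 7.03 CPM in WT (SD, n = 3 each), behind counts of 1458 to 2042 in MUT and 2750 to 3860 in WT. The log2 fold change was -1.29 (SE 0.18, edgeR adjusted p = 0.0165). Without MUT replicate 2 it was -1.10 (adjusted p = 0.0056), in a fit where 2.90% of 15262 genes were called. In the 4 libraries low in ribosomal RNA it was -1.11 (adjusted p = 0.00314). Leaving out any of the other 5 libraries (MUT replicates 1 and 3 and each WT replicate) ended the call, with adjusted p from 0.0502 to 0.0748 and the log2 fold change between -1.43 and -1.19. Far fewer genes were called in those fits, from 27 to 61. In bulk RNA, fewer cells in a phase that expresses a gene and less RNA per cell cannot be told apart.

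GMNN, which encodes the CDT1 inhibitor geminin, was at 8.36, 9.65 and 8.08 CPM in MUT, against 10.0, 13.7 and 11.7 CPM in WT. The groups did not overlap, but the highest MUT value and the lowest WT value differed by less than the range within either group. The log2 fold change was -0.44 (SE 0.14, edgeR adjusted p = 0.139). In the 4 libraries low in ribosomal RNA it was -0.61 and passed (adjusted p = 0.0427). That fit called 4 members, CDT1, GMNN, GINS2 and RFC4, against 2.66% of 14874 tested genes.

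**Figure D2:**
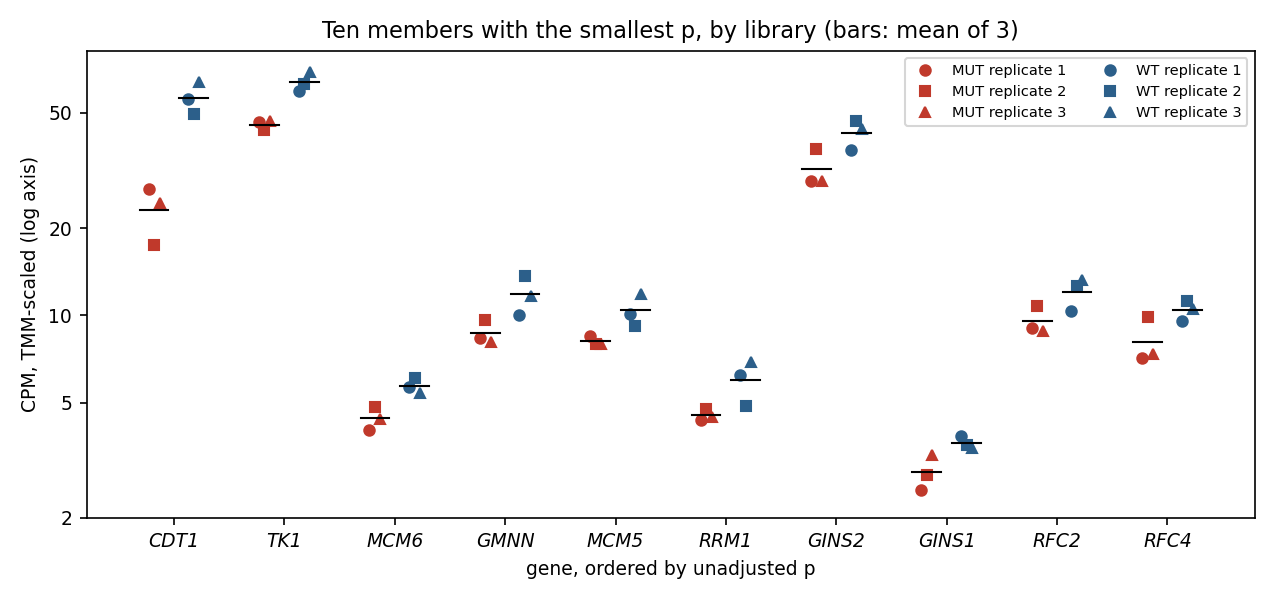
CPM (TMM-scaled, log axis) of the 10 members with the smallest unadjusted p, in each of the 3 MUT libraries (red, left of each pair) and 3 WT libraries (blue), with horizontal bars for the group means. CDT1 has the widest gap between the groups, 17.5 to 27.2 in MUT against 49.6 to 63.6 in WT, while GINS2, RFC2 and RFC4 overlap.

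A ratio of counts within one library does not depend on scaling between libraries. CDT1 counts exceeded GMNN counts 3.25-, 1.81- and 3.02-fold in the MUT libraries, against 5.57-, 3.62- and 5.45-fold in the WT libraries. All MUT ratios were below all WT ratios, though the highest in MUT (3.25) and the lowest in WT (3.62, in replicate 2) were close. The log2 ratio differed by -0.87 between MUT and WT (two-sided exact permutation p = 0.1, the smallest that 3 against 3 libraries allow). In the 4 libraries low in ribosomal RNA the difference was -0.50, which is more than 1.5 times smaller. Relative to the summed counts of MCM2 to MCM7, CDT1 stood at 0.600, 0.342 and 0.485 in the MUT libraries, against 1.04, 0.920 and 1.03 in the WT libraries. The log2 difference was -1.10 (exact permutation p = 0.1, or 0.4 adjusted over 4 ratios). CDT1 made up 7.46%, 4.48% and 6.64% of all member counts in MUT, against 12.3%, 10.3% and 12.9% in WT.

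**Figure D3:**
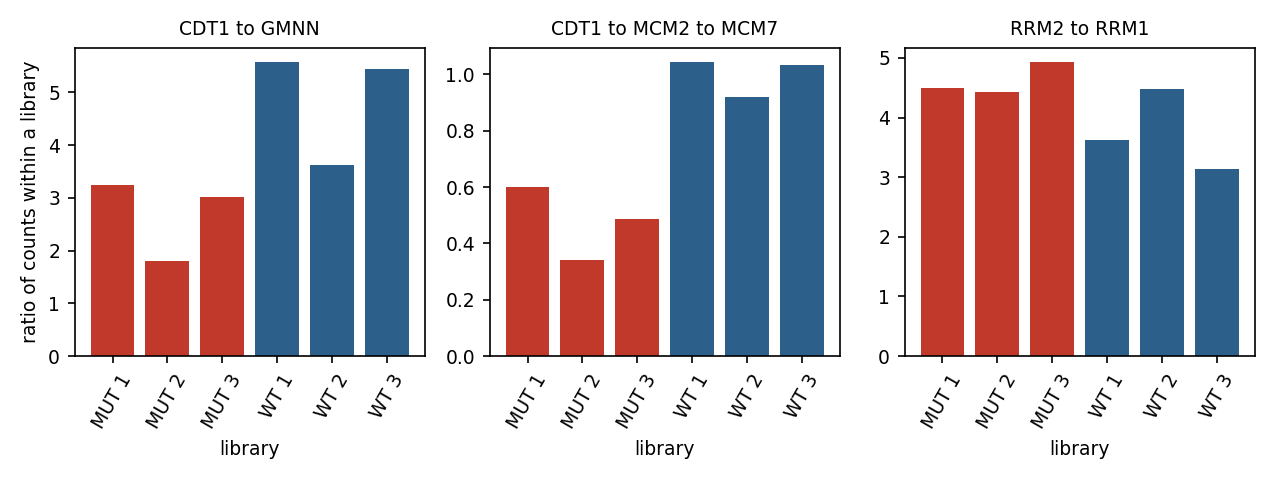
Ratios of counts within each library, on linear axes from 0, for the 3 MUT libraries (red) and 3 WT libraries (blue). CDT1 relative to GMNN and to the sum of MCM2 to MCM7 is lower in every MUT library, and RRM2 relative to RRM1 overlaps between the groups.

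The CDT1 locus is close to the long-arm telomere of chromosome 16, and its neighbours had low values in MUT as well. Of the 5 tested coding genes on each side, 9 of 10 had values below 0 and 3 were called lower, against 51.3% and 0.925% of all tested genes. These were MVD (-0.97, edgeR adjusted p = 0.0228), an enzyme of cholesterol synthesis, APRT (-0.85, adjusted p = 0.0367), which salvages adenine, and ACSF3 (-0.68, adjusted p = 0.0374), a mitochondrial acyl-CoA synthetase. In chromosome coordinates, without regard to strand, the annotated span of APRT begins 81 bases beyond that of CDT1. It was at 75.7, 71.2 and 73.3 CPM in MUT, against 113, 155 and 129 CPM in WT. PIEZO1, at 0.02, was the neighbour above 0, and the median of the 10 was -0.49. CDT1 relative to the summed counts of these 10 genes, a ratio chosen after the values were seen, stood at 0.224, 0.154 and 0.209 in MUT, against 0.323, 0.228 and 0.330 in WT. The log2 difference was -0.59 (exact permutation p = 0.1), and relative to APRT alone it was -0.47 (p = 0.3), with overlapping groups. APRT held most of the summed counts in every library, at 4376 to 6938 in MUT and 5563 to 11578 in WT. On the long arm side of the chromosome 206 of 261 tested coding genes were below 0 (78.9%, median -0.24), against 166 of 329 on the short arm side (50.5%, median 0.00). Over the last window, from 85 to 90 Mb, the median of 52 genes was -0.44, with 44 of 52 below 0, 11 called lower and 0 higher. Called genes there with lower values than CDT1 were TUBB3 (-2.45, edgeR adjusted p = 0.000274) and MC1R (-1.40, adjusted p = 0.0368). Of all tested genes 51.3% were below 0, 0.925% were called lower and 0.986% higher. The part of this regional difference in CDT1's value was not tested.

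**Figure D4:**
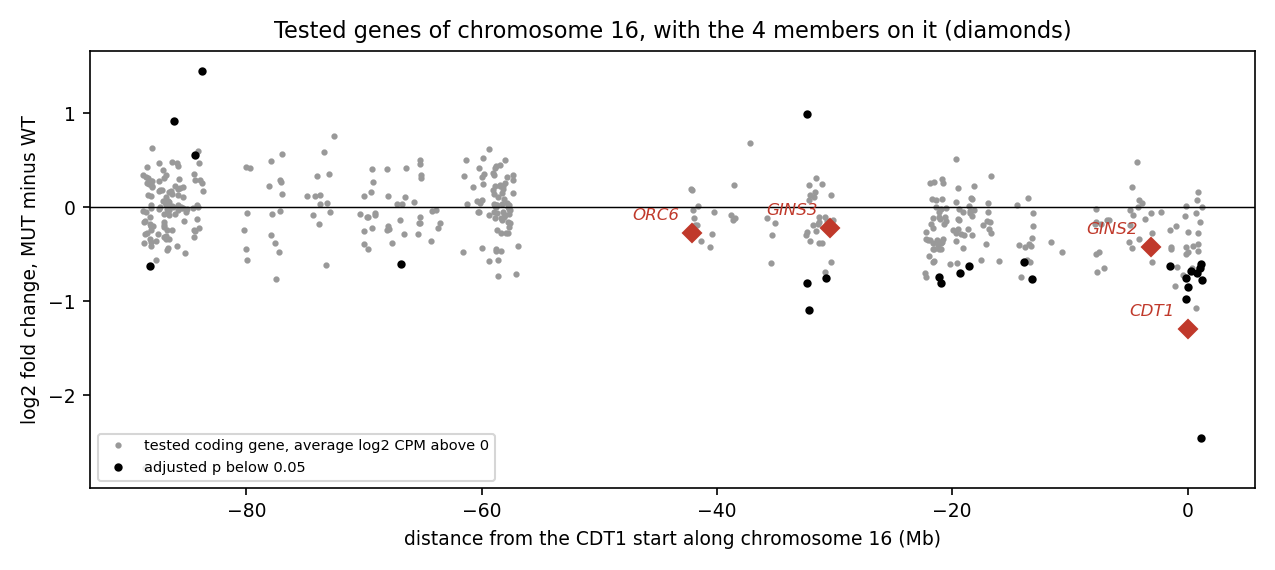
Log2 fold change (MUT minus WT) of tested coding genes of chromosome 16 with an average log2 CPM above 0, against distance in Mb from the CDT1 start, with called genes in black and the 4 members on the chromosome as red diamonds. Genes near CDT1 lie mostly below 0, and CDT1, at -1.29, lies below its direct neighbours. TUBB3, 1.12 Mb beyond the CDT1 start, lies lower, at -2.45.

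GINS2 (-0.42), ORC6 (-0.27) and GINS3 (-0.22) lie on the same long arm, and none of them passed the test. Outside chromosome 16, 27 of 35 members were below 0 (77.1%, median -0.15), 10 of 35 had MUT libraries all below the WT libraries (28.6%), and the count of called members was 0. Over all tested genes 51.3% were below 0, 13.4% had MUT libraries all below the WT libraries and 0.925% were called lower.

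Origin recognition and loading genes differed little. ORC1, the largest subunit of the origin recognition complex, was at 2.98, 3.34 and 3.17 CPM in MUT, against 3.39, 3.61 and 3.52 CPM in WT. The groups did not overlap, and the log2 fold change was -0.15 (SE 0.12, edgeR adjusted p = 0.541). ORC6, its smallest subunit, was at 3.85, 4.93 and 4.31 CPM in MUT, against 5.40, 5.49 and 4.93 CPM in WT (adjusted p = 0.27). CDC6, the loading ATPase, averaged 8.15 ± 1.02 CPM in MUT and 8.81 ± 1.08 CPM in WT (SD, n = 3 each). Its log2 fold change was -0.11 (SE 0.14), or -0.27 without MUT replicate 2 and WT replicate 1 (edgeR adjusted p = 0.369). The ratio of CDC6 to ORC1 counts averaged 2.57 ± 0.20 in MUT and 2.51 ± 0.24 in WT (exact permutation p = 0.5).

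Of the 6 subunits of the MCM ring 5 had values below 0, with a median of -0.22, and 0 passed. MCM6 was at 4.03, 4.82 and 4.39 CPM in MUT, against 5.66, 6.07 and 5.39 CPM in WT, without overlap (-0.37, SE 0.11, edgeR adjusted p = 0.125). MCM5 was at 8.496, 7.94 and 7.94 CPM in MUT, against 10.1, 9.22 and 11.8 CPM in WT, again without overlap (-0.35, SE 0.12, adjusted p = 0.161). MCM7 (-0.22), MCM4 (-0.22) and MCM3 overlapped between the groups. MCM2 averaged 6.50 ± 0.34 CPM in MUT and 6.18 ± 0.55 CPM in WT. Per length, MCM7 was the most abundant of the 6, with 35.4% ± 1.38 of their summed TPM (abundance corrected for transcript length) in MUT and 35.9% ± 2.70 in WT. MCM2 made up 12.6%, 12.2% and 11.2% in MUT, against 9.84%, 9.91% and 9.80% in WT, the 1 subunit whose share did not overlap. The share of MCM6 was the lowest, at 7.35% ± 0.39 in MUT and 8.31% ± 1.15 in WT (SD, n = 3 each). MCM7 and MCM2 share exon bases with genes on the opposite strand, as 8 members do, and the labels do not say that counting used strand.

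Activators of the helicase had a median of -0.24, with 0 of 6 called. GINS2, a subunit of the GINS complex, was at 29.004, 37.5 and 29.2 CPM in MUT, against 37.2, 46.9 and 44.0 CPM in WT. MUT replicate 2 just exceeded WT replicate 1, so the groups overlapped (-0.42, SE 0.15, edgeR adjusted p = 0.169). Without those 2 libraries the value was -0.63 and passed (adjusted p = 0.0395). GINS1 was at 2.504, 2.81 and 3.29 CPM in MUT, against 3.82, 3.57 and 3.49 CPM in WT, with no overlap (-0.34, SE 0.14, adjusted p = 0.211). CDC45, which joins GINS on the MCM ring, was at 3.61, 3.19 and 2.75 CPM in MUT, against 3.62, 4.18 and 3.66 CPM in WT (-0.26, SE 0.14). The groups did not overlap, but MUT replicate 1 and WT replicate 1 were nearly equal. MCM10, which helps start unwinding, averaged 3.07 ± 0.19 CPM in MUT and 2.95 ± 0.28 CPM in WT. GINS4 had the fewest counts of this group, 67 to 85 in MUT and 51 to 76 in WT. GINS2 took 81.6% ± 1.38 of the summed TPM of GINS1 to GINS4 in MUT and 80.5% ± 3.66 in WT, although the 4 proteins form one complex with a single copy of each.

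Of the clamp loader members, RFC2, RFC4 and RFC5 had values below 0 and RFC3 above 0, and none passed in the main fit. RFC4 was at 7.12, 9.87 and 7.34 CPM in MUT, against 9.56, 11.2 and 10.6 CPM in WT, and MUT replicate 2 lay within the WT range (-0.36, SE 0.15, edgeR adjusted p = 0.223). It passed in the 4 libraries low in ribosomal RNA (-0.57, adjusted p = 0.0498). RFC2 was at 9.07, 10.7 and 8.82 CPM in MUT, against 10.4, 12.7 and 13.2 CPM in WT (-0.34, SE 0.14, adjusted p = 0.218). The overlap came from MUT replicate 2 and WT replicate 1, and without them the value was -0.51 (adjusted p = 0.0692). RFC3 had a value above 0, with 3.98, 4.54 and 3.70 CPM in MUT against 4.17, 3.19 and 2.92 CPM in WT (0.25, SE 0.16). RFC5 averaged 10.8 ± 0.24 CPM in MUT and 11.9 ± 2.40 CPM in WT. PCNA, the sliding clamp, was at 32.3, 41.7 and 28.8 CPM in MUT, against 41.3, 41.9 and 38.8 CPM in WT (-0.25, SE 0.15, adjusted p = 0.418). Without MUT replicate 2 and WT replicate 1 it was -0.38 (adjusted p = 0.195). An antisense gene within its span, PCNA-AS1, held 529 to 973 counts in a library. Polymerase subunits were close to the median of all genes. POLA1, POLA2, POLE, POLE2 and POLD1 ran from -0.19 to 0.08, all groups overlapped, and the lowest adjusted p was 0.497.

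Among the nucleotide supply genes, TK1, the salvage enzyme thymidine kinase, had the second smallest p of all members. It was at 46.3, 43.6 and 46.7 CPM in MUT, against 59.6, 62.6 and 69.3 CPM in WT. The MUT libraries lay close together and well below the WT libraries. The log2 fold change was -0.49 (SE 0.12, edgeR adjusted p = 0.0805). It passed in the robust edgeR fit (adjusted p = 0.0459), where 3.73% of genes were called, and in DESeq2's Wald test (-0.47, adjusted p = 0.00881), where 5.16% were. RRM1, the large subunit of ribonucleotide reductase, was at 4.34, 4.75 and 4.46 CPM in MUT, against 6.23, 4.85 and 6.87 CPM in WT (-0.40, SE 0.14, adjusted p = 0.164). WT replicate 2 was close to the MUT libraries. Its partner RRM2 averaged 20.8 ± 1.25 CPM in MUT and 22.0 ± 0.53 CPM in WT (-0.08, SE 0.11), and its value was -0.05 without MUT replicate 2 and WT replicate 1. RRM2 counts exceeded RRM1 counts 4.49-, 4.43- and 4.92-fold in MUT, against 3.63-, 4.48- and 3.14-fold in WT, with overlap (exact permutation p = 0.2, or 0.4 adjusted over 4 ratios). TYMS, which makes thymidylate, averaged 42.8 ± 3.87 CPM in MUT and 51.1 ± 5.28 CPM in WT (-0.25, SE 0.13, adjusted p = 0.345), or -0.38 (adjusted p = 0.222) without MUT replicate 2 and WT replicate 1. It shares 967 exon bases with ENOSF1 on the opposite strand.

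The genes that trigger S phase entry did not follow one direction. CCNE1 was at 3.72, 4.18 and 3.27 CPM in MUT, against 3.64, 3.39 and 3.84 CPM in WT, with a log2 fold change of 0.04 (SE 0.13). CCNE2, the other E-type cyclin, was at 0.985, 1.75 and 1.61 CPM in MUT, against 0.883, 1.12 and 0.555 CPM in WT. It had the highest value of all members (0.74, SE 0.30, edgeR adjusted p = 0.224) on only 24 to 170 counts, and it shares 1629 exon bases with INTS8. CDK2, their kinase partner, was at 8.003, 7.59 and 8.20 CPM in MUT, against 8.95, 8.93 and 8.47 CPM in WT, without overlap (-0.15, SE 0.10, adjusted p = 0.475). Without MUT replicate 2 and WT replicate 1 its value was -0.09 (adjusted p = 0.825). The ratio of CCNE1 to CDK2 counts averaged 0.471 ± 0.0762 in MUT and 0.413 ± 0.0372 in WT (exact permutation p = 0.3). E2F1 averaged 8.54 ± 1.12 CPM in MUT and 8.70 ± 1.44 CPM in WT (-0.03, SE 0.16, adjusted p = 0.952). E2F2 was at 1.96, 1.87 and 1.98 CPM in MUT, against 2.32, 2.46 and 2.48 CPM in WT, without overlap (-0.32, SE 0.14, adjusted p = 0.234). E2F3 averaged 4.03 ± 0.58 CPM in MUT and 4.14 ± 1.07 CPM in WT. CDC25A, the phosphatase that activates CDK2, averaged 2.77 ± 0.40 CPM in MUT and 3.11 ± 0.16 CPM in WT.

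UHRF1, which brings the maintenance DNA methyltransferase to replicated DNA, was at 4.31, 3.26 and 4.14 CPM in MUT, against 3.07, 3.07 and 3.15 CPM in WT. It was the 1 member with every MUT library above every WT library, and MUT replicate 2 was near the WT level. The log2 fold change was 0.33 (SE 0.14, edgeR adjusted p = 0.227). It passed when counts of coding genes served as library size (adjusted p = 0.0448), where 7.88% of genes were called and the median of all genes lay at 0.24.

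Levels of the members differed more between genes than between groups. Per length, TK1, PCNA and TYMS took the first 3 ranks of TPM in all 6 libraries and together 44.98% to 45.6% of the members' summed TPM in MUT and 44.1% to 45.9% in WT. Their order among themselves changed between libraries. TK1 averaged 11.6 ± 4.24 TPM in MUT and 10.5 ± 2.79 TPM in WT (SD, n = 3 each), and GINS4, the lowest member by mean, 0.0967 ± 0.0208 TPM in MUT and 0.0667 ± 0.0231 TPM in WT. CDT1 ranked 5, 7 and 5 in MUT and 4 in each WT library, exchanging places with GINS2, which ranked 4 in each MUT library and 5 in each WT library. GINS1 ranked 26 to 29 in MUT and 17 to 25 in WT. The members' summed TPM was 47.3, 110.4 and 55.8 in MUT, against 49.9, 76.6 and 44.8 in WT, so TPM levels are read here within a library. The 5 members with an average log2 CPM above 5 (CDT1, GINS2, PCNA, TYMS and TK1) ran from -1.29 to -0.25.

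**Figure D5:**
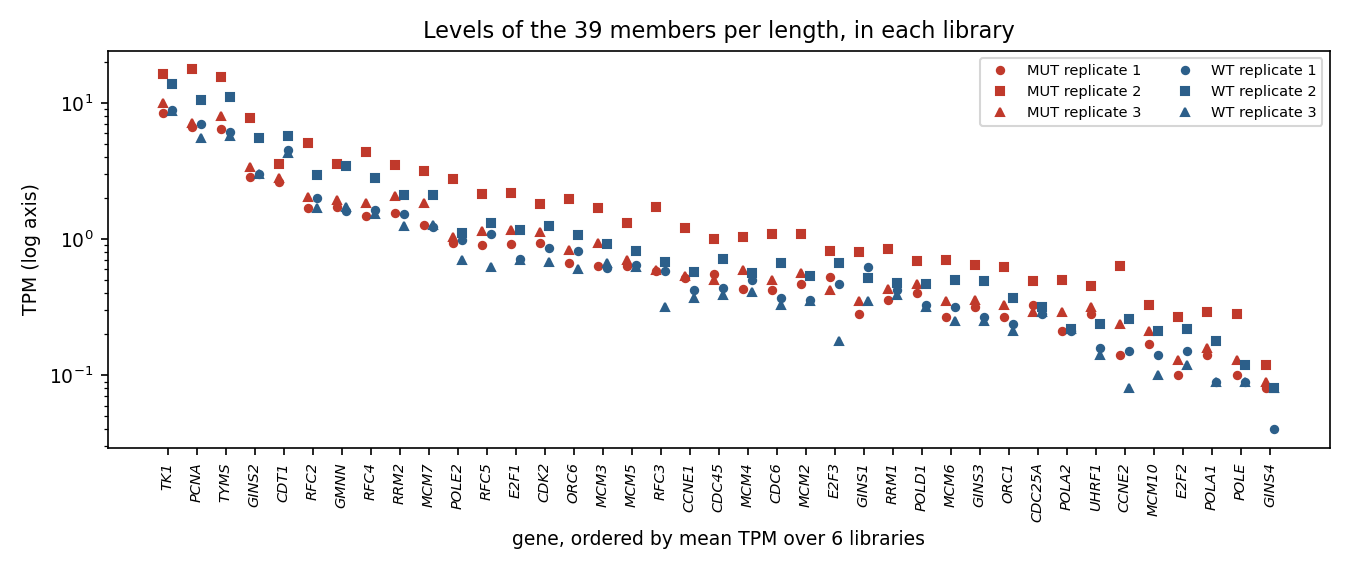
TPM (log axis) of each of the 39 members in the 3 MUT libraries (red) and 3 WT libraries (blue), genes ordered by their mean. TK1, PCNA and TYMS hold the first 3 ranks in every library, while CDT1 ranks 5 to 7 in the MUT libraries and 4 in the WT libraries.

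Other genes of the pathway were called about as often as genes in general, with 3 of 134 tested genes in 9 lists (2.24%) against 1.91% of all tested genes. Of 17 tested genes of origin licensing and firing outside the members, 0 were called, with 10 below 0 and a median of -0.12. Of 12 tested genes of CDT1 protein turnover, 0 were called, with a median of -0.09. SKP2, a receptor of the ubiquitin ligase that marks CDT1, had a value of -0.38 (SE 0.12, edgeR adjusted p = 0.118), without overlap between the groups. Of 27 other fork proteins 0 were called, 18 were below 0 and the median was -0.13. The lowest adjusted p there, 0.0501, was that of POLE3, an accessory subunit of DNA polymerase epsilon, at 0.57. Of 18 other nucleotide supply genes 1 was called, IMPDH2, the enzyme of guanine nucleotide synthesis. It was at 74.1, 69.5 and 68.2 CPM in MUT, against 117, 137 and 141 CPM in WT (-0.90, SE 0.14, adjusted p = 0.0215). Among 16 other E2F and pocket protein genes 0 were called, with 11 above 0 and a median of 0.08.

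Of 16 other G1/S cyclins, kinases and inhibitors 2 were called, both higher. CDKN1A, which encodes the CDK inhibitor p21, was at 59.1, 57.8 and 65.0 CPM in MUT, against 24.5, 25.3 and 22.7 CPM in WT (1.33, edgeR adjusted p = 0.00197). CCND1, cyclin D1, was at 47.8, 42.0 and 53.0 CPM in MUT, against 31.1, 25.8 and 24.2 CPM in WT (0.82, SE 0.15, adjusted p = 0.0303). The list's median was -0.12. Counts of called genes were 0 of 5 for partners of UHRF1 in DNA methylation (median -0.08), 0 of 10 for the ATR and CHK1 checkpoint (-0.01) and 0 of 14 for G2 and mitosis markers (-0.12). MUT libraries all lay below the WT libraries for 9 of 27 fork proteins, 6 of 18 nucleotide supply genes and 5 of 16 G1/S genes. The counts were 2 of 17 for licensing and firing, 2 of 12 for CDT1 turnover and 1 of 16 for E2F and pocket proteins. They were 2 of 5, 2 of 10 and 2 of 14 for the UHRF1, checkpoint and mitosis lists, against 13.4% of all tested genes. From 0 to 3 genes per list lay above without overlap, against 12.8%.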

How the data were processed

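The authors deposited tables of expected counts, FPKM and TPM per gene symbol for 6 RNA libraries. Tools named in the submitters' processing notes, without roles, are RSEM 1.2.28, STAR 2.5.2b, DESeq2 1.42.0 and FastQC 0.12.1, with build hg38 (GRCh38), and the annotation is not given in the sources used here. The deposited expected counts were whole in all 59251 rows, so rounding changed none. The deposited TPM and FPKM, normalised by the authors for length and depth, served for levels between genes and for alternatives.

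Counts were fitted with edgeR 4.0.16 under R 4.3.3 (filterByExpr with a minimum count of 10 and a total of 15, TMM, glmQLFit, glmQLFTest, no covariate), with limma 3.58.1 and DESeq2 1.42.0 for alternatives. P-values were adjusted over all 14808 tested genes. Standard errors are the log2 fold change divided by the square root of F. On simulated counts 14422 genes passed the filter. Among those genes, 84.4% of 4-fold, 31.2% of 2-fold and 9.09% of 1.5-fold changes were called. No library pair of a group agreed within sampling noise. Positions come from RefSeq (GRCh38.p14), exon overlaps from GENCODE. Pseudogene rows named after members held at most 3 counts.

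The members, the 9 gene lists and the alternatives were chosen with earlier results of these data known. Values in every library were to be given for CDT1, GMNN, called members, the 10 members with the smallest p and members called without MUT replicate 2 or in several alternatives. Further members were named after their values were seen. For the lists, up to 4 called genes and CDKN1A were named, and SKP2 and POLE3 after their values were seen.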

Additional observations from a re-analysis of the deposited data

How the results depend on the processing

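CDT1 lay below the median of all genes under each of 22 alternatives, from -1.43 to -0.54, and passed in 12. Where a scaling moved the median of all genes by over 0.1, that median was subtracted. CDT1 missed the threshold by library size alone (-1.32), on log2(TPM + 1) (-0.91, or -0.54 with no filter), log2(TPM + 0.1) (-1.17) and log2(FPKM + 1) (-1.06). With 1 library left out it ran from -1.43 to -1.10 and passed in 1 of 6 fits, that without MUT replicate 2.

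Called members numbered 0 by library size alone and on the 4 TPM and FPKM scales, the filtered ones testing 14 or 32 members. They numbered 2 with coding counts as library size, with no filter, in the robust fit and in DESeq2, 4 in the libraries low in ribosomal RNA, and 0 to 1 with 1 library left out. Over the whole table, called genes numbered 108 by library size alone, 1184 with coding counts as library size, 1195 with no filter, 462 with at least 1 CPM in 3 libraries, 552 in the robust fit and 764 in DESeq2. They numbered 21 on log2(TPM + 1), 1 on it with no filter, 10 on log2(TPM + 0.1), 13 on log2(FPKM + 1) and 27 to 442 with 1 library left out.

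The members' median less that of all genes covered 14 members on the filtered TPM scales, 32 on log2(FPKM + 1) and 39 elsewhere. It was -0.16 and stayed between -0.23 and -0.11, except on log2(TPM + 1) with no filter, at 0.14. That scale keeps 24385 genes, many near 0, and gave values above 0 for TK1 (0.12), MCM6 (0.0786), GMNN (0.0681), MCM5 (0.13), RRM1 (0.10), GINS2 (0.17), RFC2 (0.22), RFC4 (0.18), E2F2 (0.0022), CDK2 (0.24), CDC45 (0.15), TYMS (0.31), PCNA (0.32), ORC1 (0.14), ORC6 (0.20), CDC6 (0.19), MCM7 (0.26), MCM4 (0.16), GINS3 (0.11) and RRM2 (0.33). RRM2 was also above 0 on log2(FPKM + 1), at 0.0185 after the median of all genes was subtracted. Before that subtraction, the members' median was above 0 in further settings. It was 0.37 by library size alone (all genes 0.54) and 0.08 with coding counts as library size (0.24). On the filtered scales it was 0.24 on log2(TPM + 1) (0.36), 0.34 on log2(TPM + 0.1) (0.49) and 0.22 on log2(FPKM + 1) (0.33). CDC6 ran from -0.20 to 0.0246 (without WT replicate 2) with 1 library left out. The CDT1 to GMNN difference ran from -1.08 to -0.50 over 11 alternatives.

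The labels do not say that the replicate numbers pair the libraries. Deviations of same-numbered libraries from their group means correlated at -0.29, -0.04 and 0.22 across genes. MUT replicate 3 correlated best with its own number, but MUT replicate 1 correlated best with WT replicate 3 (0.24) and MUT replicate 2 with WT replicate 1 (0.37). MUT replicate 2 and WT replicate 1 were also the libraries with the most ribosomal RNA. Deviations within a group are not independent of each other, so these correlations cannot decide whether libraries were paired. On log2 CPM itself, MUT replicate 2 correlated at 0.950 with WT replicate 1. It correlated at 0.940 and 0.943 with MUT replicates 1 and 3, and at 0.938 and 0.917 with WT replicates 2 and 3. Its TMM factor was 1.68, against 0.676 to 1.11 in the other libraries. With the replicate block, 296 genes and 1 member, CDT1 (-1.31), were called, and the CDT1 to GMNN difference was -0.87. The replicate block changed no call among the members. Counts of single members limit precision for CCNE2 and GINS4, with fewer than 100 counts in most libraries.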
